A study of Mus musculus with 10 samples.

Results

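Immediate early genes are genes that cells transcribe within minutes of a stimulus, without first making new protein. Many encode transcription factors. FOS and JUN proteins pair to form AP-1, and other early proteins shut the response down again, by removing phosphate from the kinases that start it or by marking early mRNAs for decay. In fat tissue these genes are known to respond to stress, to hormones and to handling of the tissue, in adipocytes as well as in immune and vascular cells. The genes described here were 10 in number: the AP-1 genes *Fos*, *Fosb*, *Jun* and *Junb*, the stress factor *Atf3*, the transcription factors *Egr1* and *Nr4a1*, the brakes *Dusp1* and *Zfp36*, and *Ier2*. They were found by their gene symbol among the non-control probes of the arrays. All 10 were present, out of 34797 symbols on the array, each with 1 probe. The *Fos* probe was printed in 10 spots and each of the others in 1 spot, so 19 spots were read in all.

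RNA came from epididymal white adipose tissue (eWAT) of 10 adult male wildtype mice, named in the labels as strain C57BL/6J and in the protocol as C57BL/6JOlaHsd. All 10 belonged to 1 group. They had eaten a purified low fat diet for 3 weeks and then a high fat diet for 12 weeks at 29°C, and were injected once a day for 5 days with 100 mg/kg of the iron chelator desferrioxamine (DFO). On day 6 the food was taken away for 2 h at the start of the light phase before the mice were killed. The RNA of each mouse was labelled with Cy5 and set against a Cy3-labelled pool of RNA from all mice of the wider study, controls included, to which each mouse had also contributed. Control mice were not analysed here, so no value below says what DFO did. The values describe how the early genes differed between 10 mice treated alike. The log2 ratio used throughout is log2 of Cy5 over Cy3 for 1 probe. It was compared between mice only, since the dyes were not swapped, and it was never compared between probes. Nothing in the labels links the mice to litters or cages, and each mouse was measured on 1 array.

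There were 5 slides, and each carried the arrays of 2 mice in the order of their numbers. Median Cy5 signals were between 54.8 and 81.3 against a median background of 32 to 37. Over all 27718 probes that were expressed (Cy5 well above background on at least 5 arrays) and complete, the first principal component held 75.1% of the variance. It set mice 4, 5, 6 and 7 apart from mice 1, 2, 3, 8, 9 and 10, with an empty stretch between them of 0.513 of its range. For that reason no correlation coefficient over all 10 mice is given, and each regression over all 10 mice holds the difference between these sets of mice. The range of mice 4 to 7 is set beside that of the other 6 mice as a description, with no test between them. The defining markers of the labelled tissue were present, since all 8 adipocyte markers were expressed, but they were not even among the mice (below).

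*Fos*, the founding partner of JUN in AP-1, was among the genes that differed most between the mice. Its log2 ratio was lowest in mouse 9 (-1.58), had a median of -0.14 and was highest in mouse 5 (1.10), a range of 6.39-fold. Mice 4 to 7 lay between 0.90 and 1.10 and the other 6 mice between -1.58 and 0.32, so the ranges did not overlap. Among the other 6, mouse 2 stood highest and mice 9 and 10 lowest. The SD over the 10 mice was 1.08, higher than in 99.1% of all expressed probes, whose median SD was 0.1767. The replicate spots of the probe give a direct view of the error between spots: within an array their SD was between 0.046 and 0.2. They share the RNA, labelling and hybridization of that array, so error from those steps is not in this SD. The probe lies at chr12:86817900-86817959 (mm9, plus strand) and starts at base 1773 of the transcript.

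*Atf3* encodes a bZIP transcription factor of the ATF/CREB family that is induced by many kinds of cell stress. Its log2 ratio was lowest in mouse 9 (-1.70), had a median of -0.51 and was highest in mouse 4 (1.32), a range of 8.13-fold and the widest of the 10 genes. The SD was 1.19, above that of 99.5% of expressed probes. Mice 4 to 7 had 0.85 to 1.32 and the other 6 mice -1.70 to -0.25, again with no overlap. The order of the other 6 followed that of *Fos* at both ends, with mouse 2 highest and mice 9 and 10 lowest. Its probe lies at chr1:192994547-192994606 (mm9, minus strand).

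The other AP-1 genes had smaller SDs. *Junb*, a JUN family member, had its lowest log2 ratio in mouse 3 (-0.25), a median of 0.04 and its highest in mouse 6 (0.58). Mice 4 to 7 had 0.39 to 0.58 and the other mice at most 0.05, so the ranges of *Junb* were also apart. Its probe was dim, with Cy5 signals of 51.9 to 162, and in mouse 3 it was not well above background. The offset of 50 in the background correction pulls ratios of such dim probes toward 0. On the scanner software's own log ratio the SD of *Junb* was 0.902 in place of 0.32, beside 1.21 for *Fos*.

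*Jun*, the main partner of FOS, was bright (2860 to 12900) and had an SD of 0.19, or 0.476 under median centring. Its log2 ratio went from -0.44 in mouse 3 through a median of -0.10 to 0.15 in mouse 7. Mouse 6 (-0.22) lay among the other 6 mice, so *Jun* did not part the mice as *Fos* did. *Fosb*, a close relative of *Fos*, was lowest in mouse 9 (-0.33), had a median of -0.12 and was highest in mouse 1 (0.31). Mice 4 to 7 had -0.31 to 0.02 for *Fosb*, inside the range of the other mice. The *Fosb* probe was dim (62.7 to 154), and its SD was 0.22 here and 0.437 on the scanner's log ratio.

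**Figure D1:**
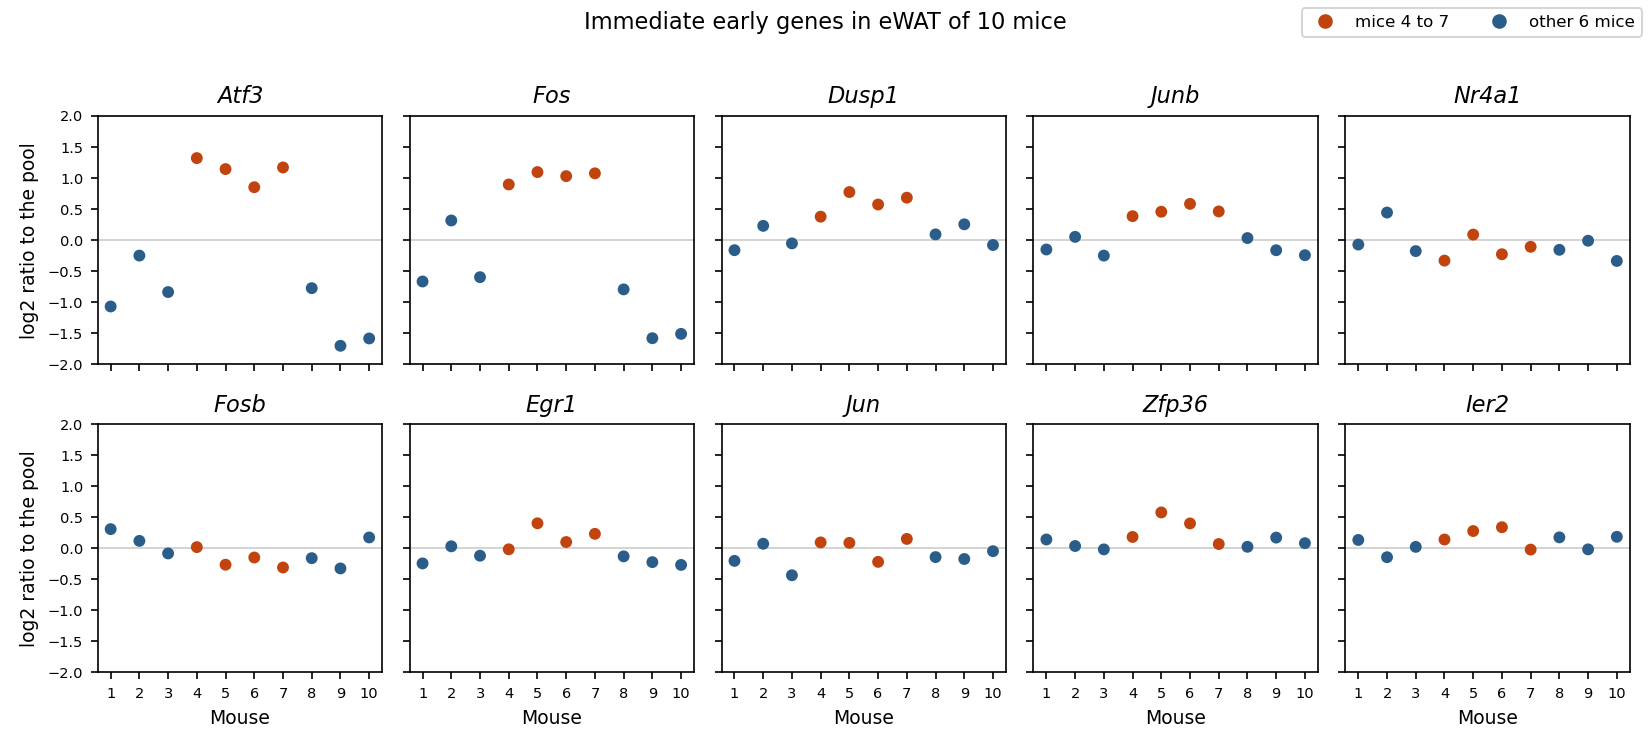
Log2 ratio to the pool (y axis) of the 10 genes in each of the 10 mice (x axis), 1 point per mouse, with genes ordered by SD. *Atf3* and *Fos* span -1.70 to 1.32 and -1.58 to 1.10. For *Atf3*, *Fos*, *Dusp1* and *Junb* the points of mice 4 to 7 all lie above the others, and for the other genes the 2 sets of points overlap.

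*Egr1*, a zinc finger transcription factor that is often measured together with *Fos*, went from -0.27 in mouse 10 through a median of -0.07 to 0.40 in mouse 5. Mice 4 to 7 had -0.02 to 0.40 and the other mice -0.27 to 0.03, so mouse 4 lay below mouse 2. On the scanner's log ratio the ranges of *Egr1* just parted, at 0.03 or more against -0.01 or less. *Nr4a1* encodes the orphan nuclear receptor NUR77. It was lowest in mouse 10 (-0.34), had a median of -0.13 and was highest in mouse 2 (0.44), and mouse 4 (-0.33) was next to the lowest. The 4 mice with high *Fos* thus had *Nr4a1* of -0.33 to 0.09, within the range of the others.

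*Dusp1* encodes a phosphatase that inactivates MAP kinases and so limits the response. Its log2 ratio was lowest in mouse 1 (-0.16), had a median of 0.24 and was highest in mouse 5 (0.77), with 0.38 to 0.77 in mice 4 to 7 and at most 0.26 in the others. The array's annotation places its probe at chr17:26642526-26642536 (mm9), a stretch shorter than the probe's 60 bases. *Zfp36* encodes tristetraprolin, which binds AU-rich elements and speeds the decay of early mRNAs. It had -0.02 in mouse 3, a median of 0.11 and 0.58 in mouse 5, and although mice 5 and 6 (0.40) were highest, mouse 7 (0.07) lay among the others. *Ier2*, a nuclear protein gene, went from -0.15 in mouse 2 through a median of 0.14 to 0.34 in mouse 6, with mice 4 to 7 at -0.02 to 0.34. Its probe was dim as well (69.1 to 140), and its SD of 0.15 was 0.354 on the scanner's log ratio. In all, mice 4 to 7 lay wholly above the other mice in 4 of the 10 genes (*Fos*, *Atf3*, *Junb* and *Dusp1*), and 17.9% of all expressed probes did so. None of the 10 genes had these mice wholly below the others, where 21.3% of all probes did.

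On 3 of the slides both mice lay on the same side of the first component. Slide 2 held mice 3 and 4 and slide 4 held mice 7 and 8, so each carried a mouse of either side. *Fos* was 1.49 higher in mouse 4 than in mouse 3 and 1.87 higher in mouse 7 than in mouse 8, both on the log2 scale. For *Atf3* the differences within the slides were 2.16 and 1.94 and for *Dusp1* 0.43 and 0.59. *Junb* was 0.43 higher in mouse 7 than in mouse 8. For mouse 3 its probe was not well above background, so the difference on slide 2 is not given. *Nr4a1* differed by -0.15 and 0.05, with opposite signs on the slides. The slide itself was called for 0 of 27718 probes by limma's moderated F test at an adjusted p under 0.05, and 1136 (4.1%) had an unadjusted p under 0.05. On slides 2 and 4 the difference between the sides entered the error of this test, so it could miss an effect of the slide. The lowest unadjusted p of a member was 0.0386, for *Zfp36* (adjusted p = 0.697).

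To show the sequence in front of genes that moved together, the 250 bases before their transcription start are shown as RefSeq gives them (GRCm38.p6). The table held 8 of the 10 genes, without *Egr1* and *Ier2*. *Fos*, *Atf3*, *Junb* and *Dusp1* are printed because mice 4 to 7 stood apart in them, and *Nr4a1* because they did not. Each is read 5′ to 3′ on the gene's strand. Capitals mark TGACG or its reverse complement, the core that CREB and ATF proteins bind.
Fos (chr12:85473640-85473889, plus strand): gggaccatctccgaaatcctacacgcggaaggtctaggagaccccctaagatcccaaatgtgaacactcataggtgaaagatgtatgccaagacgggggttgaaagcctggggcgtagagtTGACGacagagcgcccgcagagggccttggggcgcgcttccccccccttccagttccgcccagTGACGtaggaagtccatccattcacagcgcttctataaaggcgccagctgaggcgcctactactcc
Atf3 (chr1:191183334-191183583, minus strand): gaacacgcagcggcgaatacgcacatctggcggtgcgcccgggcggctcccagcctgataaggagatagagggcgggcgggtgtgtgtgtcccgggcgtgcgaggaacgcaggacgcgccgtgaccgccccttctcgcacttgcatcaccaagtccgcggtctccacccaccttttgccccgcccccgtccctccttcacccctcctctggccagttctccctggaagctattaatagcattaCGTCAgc
Junb (chr8:84978749-84978998, minus strand): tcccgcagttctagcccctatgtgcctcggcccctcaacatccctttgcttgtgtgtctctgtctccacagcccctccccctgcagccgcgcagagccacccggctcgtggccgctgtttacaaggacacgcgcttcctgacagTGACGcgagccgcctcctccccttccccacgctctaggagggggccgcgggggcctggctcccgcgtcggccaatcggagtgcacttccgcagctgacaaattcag
Dusp1 (chr17:26508473-26508722, minus strand): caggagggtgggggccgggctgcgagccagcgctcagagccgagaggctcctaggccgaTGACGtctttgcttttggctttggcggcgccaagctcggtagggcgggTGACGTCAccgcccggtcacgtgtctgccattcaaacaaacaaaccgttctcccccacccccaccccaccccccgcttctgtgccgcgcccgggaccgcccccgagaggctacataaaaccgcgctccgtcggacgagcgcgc
Nr4a1 (chr15:101266596-101266845, plus strand): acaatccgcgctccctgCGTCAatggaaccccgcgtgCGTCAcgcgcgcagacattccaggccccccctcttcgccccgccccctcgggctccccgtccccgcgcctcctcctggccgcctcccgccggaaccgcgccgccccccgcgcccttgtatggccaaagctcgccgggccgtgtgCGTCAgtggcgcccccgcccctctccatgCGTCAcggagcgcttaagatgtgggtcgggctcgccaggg

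The motif TGACG, searched on both strands, had 2 matches in the *Fos* window, 1 each in those of *Atf3* and *Junb* and 3 in that of *Dusp1*. It had 4 matches in the window of *Nr4a1*, which did not part the mice, and 1 in that of *Fosb*. With *Jun* and *Zfp36* at none, 6 of the 8 windows held it, as did 17.8% of the 32851 windows of the table. The full palindrome TGACGTCA, which overlaps TGACG on both strands, occurred only in the *Dusp1* window of the 8, at -143 to -136 from the start, and in 1.55% of all windows. In the *Atf3* window the match was at -7 to -3. TATAAA occurred in the *Fos* window alone, at -33 to -28, and in 12.4% of all. GCGGGGGCG, the letters that EGR proteins bind, occurred in *Fosb*, *Zfp36* and *Nr4a1* and in 2.57% of all, and the CArG box of serum response factor in *Zfp36* only and in 1.47% of all. The AP-1 site TGACTCA matched none of the 8 windows and 4.46% of all. These are letters in a window and do not show that a factor was bound. Sites farther than 250 bases from the start were not looked for, and *Egr1* and *Ier2* had no window. A motif missing here, such as the CArG box, may thus still lie elsewhere in front of these genes.

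To learn whether the mice varied more than the pool, the variances of log2 Cy5 (the mice) and log2 Cy3 (the same pool on every array) were compared for each probe. The Pitman-Morgan test was used, adjusted over 25049 probes by the Benjamini-Hochberg method. The spread of the pool holds array and spot error. It does not hold error from dissection, RNA isolation and Cy5 labelling of each mouse's sample, so a call does not set such error apart from biology. The variance of Cy5 was higher for 8 of the 10 genes at an adjusted p under 0.05, where 59.8% of all probes were called. For *Fos* the SD was 1.10 in Cy5 and 0.04 in Cy3 (adjusted p = 1.33e-08 by the Pitman-Morgan test). For *Atf3* it was 1.29 and 0.12 (adjusted p = 1.35e-07 by the same test). *Jun* was called as well, with a small spread between mice and a smaller spread of the pool (0.20 against 0.03, adjusted p = 9.69e-05 by the Pitman-Morgan test). Without normalization between arrays it was not called (adjusted p = 0.0728), nor were *Egr1* (0.0817), *Ier2* (0.282) and *Nr4a1* (0.256). *Fosb* (0.20 against 0.10, adjusted p = 0.092) and *Zfp36* (0.21 against 0.18, adjusted p = 0.691) were not called. Under median centring *Fosb* was called (adjusted p = 0.0305 by the Pitman-Morgan test), and *Egr1* (0.151) and *Nr4a1* (0.073) were not. Where only mice 1, 2, 3, 8, 9 and 10 were used, a setting chosen after seeing the data, 3 of the 10 genes were called (*Fos*, adjusted p = 0.00166, *Atf3*, 0.0104, and *Jun*, 0.0212, Pitman-Morgan), against 14.2% of all probes.

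**Figure D2:**
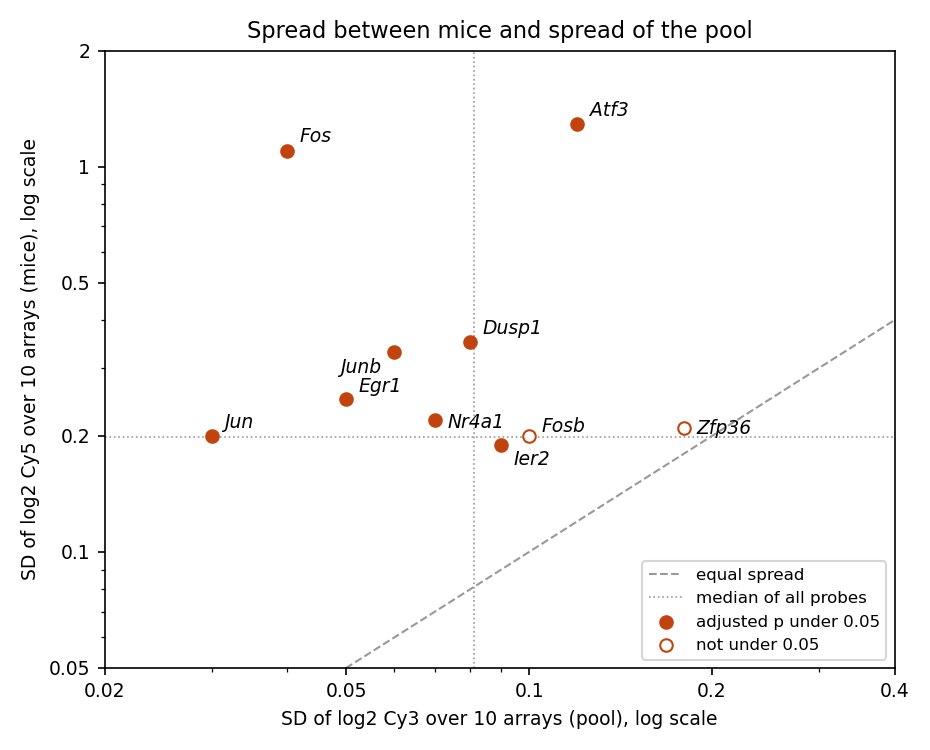
SD over the 10 arrays of log2 Cy5 (mice, y axis) against that of log2 Cy3 (pool, x axis) for each of the 10 genes, both axes logarithmic. Dotted lines are the medians of all probes, 0.1989 for Cy5 and 0.0812 for Cy3, and the dashed line marks equal spread. *Fos* and *Atf3* lie far above the rest, and *Zfp36* and *Fosb*, the open points, were not called.

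Whether the early genes moved together was asked by regressing every expressed probe on the log2 ratio of *Fos* with limma, adjusted over 27717 probes. Of the other 9 genes, 4 rose with *Fos* and 0 fell, where 22.2% of all probes rose and 24.4% fell (46.6% in either direction). *Atf3* rose by 1.08 (SE 0.07) per unit of *Fos* (limma, adjusted p = 1.35e-06), nearly unit for unit. *Junb* rose by 0.28 (SE 0.04, adjusted p = 0.000207 by limma), *Dusp1* by 0.24 (SE 0.06, adjusted p = 0.00389) and *Egr1* by 0.18 (SE 0.04, adjusted p = 0.00179). For *Jun* and *Zfp36* the slope was 0.09 (SE 0.05 each, adjusted p = 0.156 and 0.166 by limma), and for *Nr4a1*, *Ier2* and *Fosb* it was 0.03, 0.03 and -0.05 with SE of 0.06, 0.05 and 0.06. The same 4 genes were called under median centring, without background subtraction, on the scanner's log ratio and on the deposited normalized values. The slope of *Junb* was 0.661 on the scanner's log ratio and 0.398 on the deposited values, which follow the Cy5 signal and are not ratios to the pool. With the slide as a block *Egr1* was not called (slope 0.167, adjusted p = 0.112 by limma) and *Jun* was (slope 0.244, adjusted p = 0.0372), and where a probe had to pass on all 10 arrays *Junb* was not tested.

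The fit was repeated within mice 1, 2, 3, 8, 9 and 10, again a setting chosen after seeing the data. The first component still graded these 6 mice, from -18.9 in mouse 2 to -50.6 in mouse 9, in the same order as *Fos*. Relations with *Fos* among them therefore cannot be told apart from relations with that component. There *Atf3* was the only one of the 9 genes called (slope 0.75, SE 0.09, adjusted p = 0.00723 by limma), where 3.15% of all probes were called (2.32% rose and 0.823% fell). Over these 6 mice *Atf3* and *Fos* had a Pearson's r of 0.967 (exact permutation test, two-sided, p = 0.00972) and a Spearman's rho of 0.829 (exact p = 0.0583). The smallest p that 6 mice allow is 0.00139 for r. Without mice 2 and 9, which lay farthest from the median of *Fos*, r was 0.896. *Egr1* had an r of 0.871 (exact permutation p = 0.0264, not adjusted over the 9 relations) and a slope of 0.14 (SE 0.07, adjusted p = 0.328 by limma). Its Spearman's rho was 0.714 (exact permutation p = 0.136), and r was 0.651 without mice 2 and 9. *Dusp1*, which rose with *Fos* over 10 mice, had a slope of 0.03 (SE 0.1) within the 6. *Nr4a1* had a slope of 0.29 (SE 0.1, adjusted p = 0.191 by limma) there, against 0.03 over all mice, and mouse 2 was highest in both *Nr4a1* and *Fos* among the 6. Its r with *Fos* was 0.749 and its rho 0.257, and r was 0.892 without mice 2 and 9. All 9 relations with *Fos* were computed. With the first principal component as a covariate over all 10 mice, limma called 0 of the 9 genes. Of all probes it called 1.79% (1.66% rose and 0.126% fell). An unadjusted p under 0.05 was found for 2 of the 9, *Atf3* and *Nr4a1*, and for 11.9% of all probes. The slope of *Atf3* was 0.49 in place of 1.08 (adjusted p = 0.0739 by limma). That of *Nr4a1* was 0.45 in place of 0.03 (adjusted p = 0.156 by limma).

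**Figure D3:**
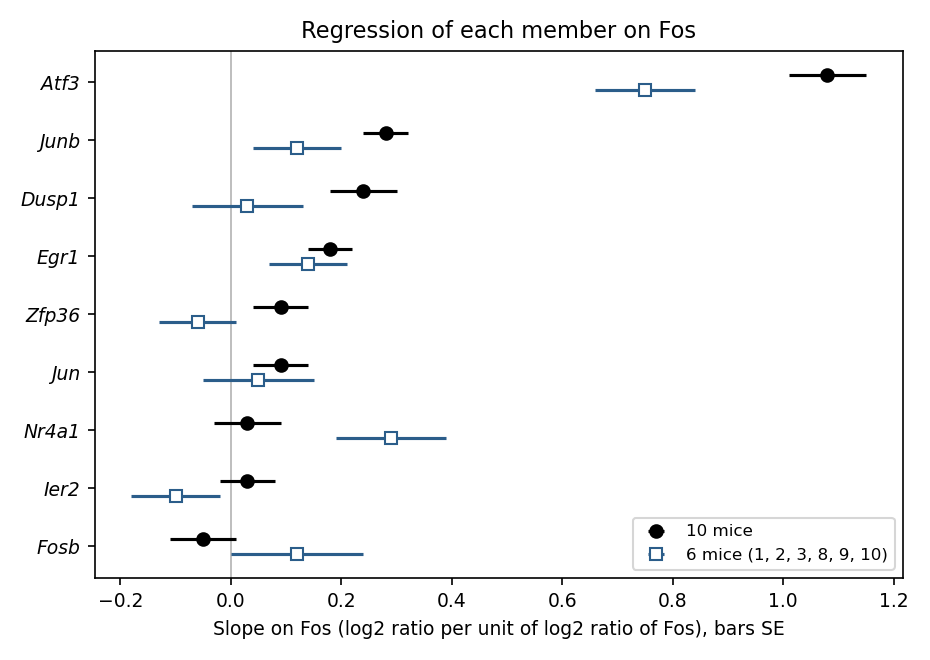
Slope of each gene on *Fos* (x axis, log2 ratio per unit of log2 ratio of *Fos*) with bars of 1 SE, over all 10 mice (filled circles) and over mice 1, 2, 3, 8, 9 and 10 (open squares). *Atf3* stands at 1.08 and 0.75, and every other gene lies below 0.30 in both fits.

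With each gene in turn as the covariate, 21 of 90 ordered pairs were called. *Fos*, *Atf3*, *Junb*, *Egr1* and *Dusp1* were each called with the other 4 of them. The share of all probes called was 46.6% for *Fos*, 46.7% for *Junb*, 36.6% for *Egr1*, 50.2% for *Atf3* and 38.5% for *Dusp1*. *Fosb* fell as *Dusp1* rose (slope -0.46, SE 0.16, adjusted p = 0.0441 by limma), but with *Fosb* as the covariate the relation was not called (adjusted p = 0.747 by limma). With *Jun*, *Fosb*, *Ier2*, *Nr4a1* or *Zfp36* as the covariate, limma called 0% of all probes, and 19.4%, 3.65%, 2.87%, 3.13% and 9.78% had an unadjusted p under 0.05. Within the 6 mice 2 pairs were called, *Atf3* on *Fos* and *Fos* on *Atf3* (slope 1.24, adjusted p = 0.0109 by limma, with 0.931% of all probes called). *Nr4a1* as the covariate had 0.368% of all probes called there and none of the other 9 genes, and each of the others had 0%.

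In all, 8 adipocyte markers and 7 macrophage markers were read beside the early genes, since eWAT is a mixture of cells. Here and in the lists below, a gene with several expressed probes was read by the brightest of them only. In bulk tissue, fewer cells of a type and less RNA per cell cannot be told apart. All 7 macrophage markers (*Emr1*, *Cd68*, *Lyz2*, *Itgax*, *Cd14*, *Csf1r* and *Mrc1*) were wholly higher in mice 4 to 7 than in the other mice, and all 7 rose with *Fos* (slopes 0.25 to 1.06), where 17.9% of all probes were wholly higher and 22.2% rose. The median of the macrophage list was 0.65 to 0.99 in mice 4 to 7 and -1.08 to -0.10 in the others. All 8 adipocyte markers, among them *Adipoq*, *Plin1* and *Cfd*, were wholly lower in mice 4 to 7 and fell with *Fos* (slopes -2.20 to -0.52), where 21.3% and 24.4% of all probes did so, with list medians of -2.19 to -1.10 against -0.11 to 0.63. Within the 6 mice, 5 of the 7 macrophage markers still rose with *Fos* (*Emr1*, adjusted p = 0.0125, *Cd68*, 0.0195, *Lyz2*, 0.0291, *Cd14*, 0.0367, and *Itgax*, 0.0395, limma), where 2.32% of all probes rose. Mouse 2 had the highest macrophage median of the 6 and the lowest adipocyte median, and it was also highest in *Fos* and *Atf3*. It differed in other markers too. Its list median was the highest of the 10 mice for smooth muscle (1.12, next 0.08 in mouse 9). The same held for sperm markers (-0.89, next -1.93 in mouse 3) and for *Krt8* of the mesothelium list (1.91). Markers of endothelium were wholly lower in mice 4 to 7 for 5 of 6 genes, those of smooth muscle for 4 of 4, of blood for 3 of 3, of T cells for 3 of 4 and of mesothelium for 3 of 5. Of the fibroblast markers 2 of 5 were wholly higher (*Col1a1* and *Col3a1*), and of the neutrophil markers 0 of 4. Within the 6 mice, however, 2 of the 4 neutrophil markers rose with *Fos* (*S100a8*, slope 0.99, adjusted p = 0.0122, and *Lcn2*, slope 1.23, 0.0149, limma). *S100a9* (adjusted p = 0.916 by limma) and *Retnlg* (0.834) did not. *Lcn2* was 1.54 in mouse 2 and at most 0.28 in the rest. *Col1a1* (adjusted p = 0.0426 by limma), the B cell marker *Cd79b* (0.0388) and the sperm marker *Tnp1* (0.0461) also rose there. The adipocyte markers *Cfd* (adjusted p = 0.0101 by limma) and *Plin1* (0.015) and the mesothelium marker *Wt1* (0.0372) fell, where 0.823% of all probes fell. Neutrophil markers still varied, from a list median of -1.01 to 0.46 over the 10 mice. The part of these cell types in the values of the early genes was not tested.

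**Figure D4:**
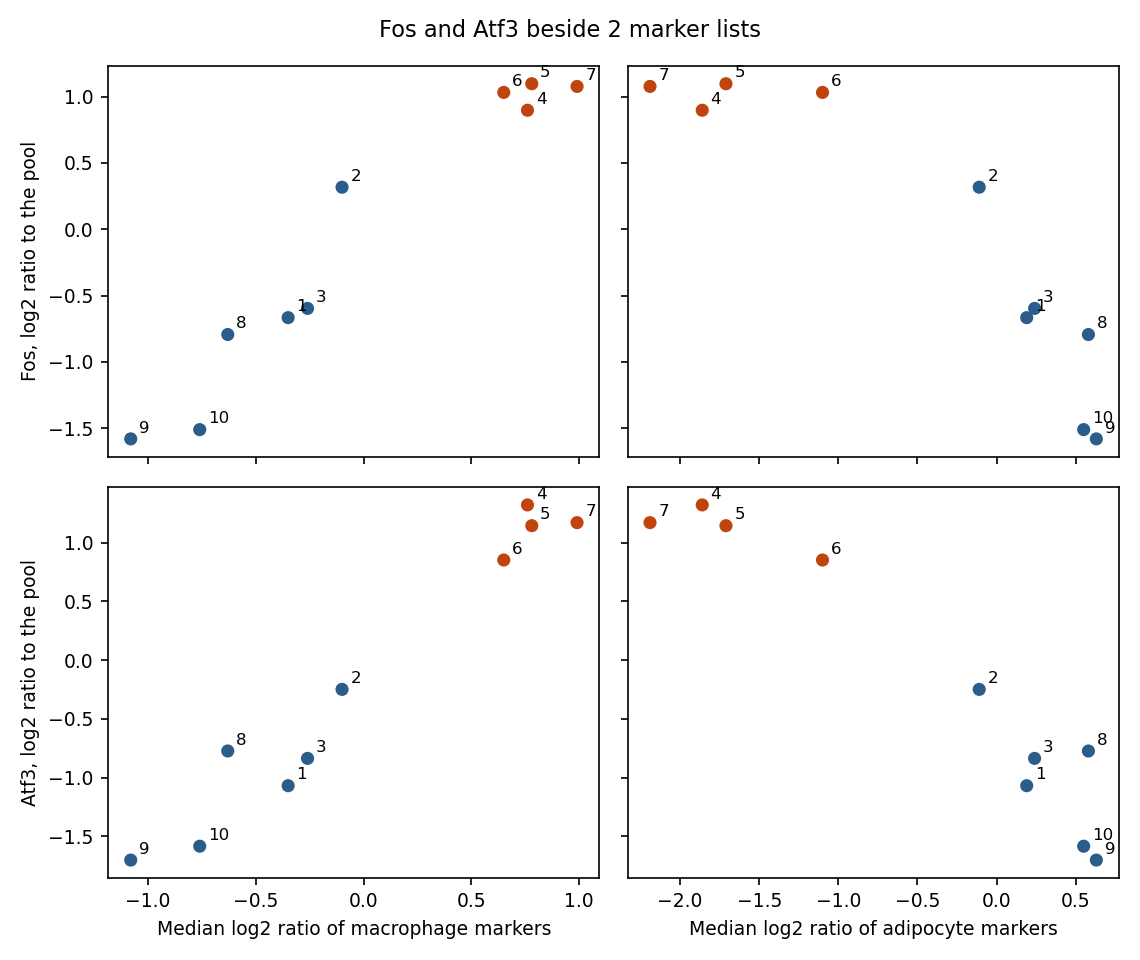
Log2 ratio of *Fos* (upper row) and *Atf3* (lower row) against the median log2 ratio of 7 macrophage markers (left) and 8 adipocyte markers (right), 1 numbered point per mouse, with mice 4 to 7 in red and the other 6 mice in blue. Mice 4 to 7 sit at macrophage medians of 0.65 to 0.99 and adipocyte medians of -2.19 to -1.10, and mouse 2 is the nearest to them in every panel.

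The probes most like *Fos*, ranked by r over all 10 mice in the expressed table, so that the difference between the sets of mice enters the rank, included those of *Cndp2*, *Gcnt1*, *Osbpl3*, *Sema4d*, *Rasgef1b*, *Calm2*, *Sel1l3*, *Cadm1* and *Atp6v0d2*. Over the 6 mice their r with *Fos* was 0.973 to 0.997, given as a description of genes picked for it. *Atp6v0d2*, a subunit of the proton pump of lysosomes, had a log2 ratio of 1.22 to 1.40 in mice 4 to 7 and -2.57 to -0.21 in the others. *Sema4d*, which encodes a semaphorin, had 1.14 to 1.39 against -1.55 to 0.40. None of the other early genes described here was among the 10 probes most like *Fos*. The most opposite were *Fgf2*, *Ube2o*, *Orm3*, *Yipf4* and *3300002I08Rik*, with r of -0.979 to -0.929 over the 6 mice. *Orm3*, of the orosomucoid family of acute phase proteins, had -1.83 to -1.40 in mice 4 to 7 and -0.48 to 1.16 in the others.

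A wider list of 48 other early and primary response genes was read in the same way, and 43 were expressed (not *Dusp5*, *Egr3*, *Egr4*, *Nr4a3* and *Ptgs2*). Of these, 17 rose with *Fos* and 8 fell at an adjusted p under 0.05 (limma), against 22.2% and 24.4% of all probes, and the median slope was 0.08 against -0.0018 over all probes. *Egr2*, which encodes a relative of EGR1, was the most like *Fos* of the list. Its log2 ratio went from -1.81 in mouse 9 through a median of -0.47 to 1.31 in mouse 5, with 1.01 to 1.31 in mice 4 to 7 and at most -0.39 in the others (slope 1.09, adjusted p = 1.30e-06 by limma). The kinase gene *Plk2* had 0.96 to 1.42 in mice 4 to 7 and -0.92 to -0.02 in the others (slope 0.75, adjusted p = 1.28e-05 by limma). *Arc*, best known from neurons, had 0.46 to 0.87 against -0.45 to 0.01. Within the 6 mice, *Egr2* (adjusted p = 0.0154 by limma) and *Plk2* (0.0388) were the 2 genes of the list that rose with *Fos*, against 2.32% of all probes, and 0 fell (5 at an unadjusted p under 0.05). In either direction 12 of the 43 had an unadjusted p under 0.05 there, as did 16.9% of all probes.

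Early genes also moved the other way. *Btg2*, an antiproliferative gene, fell by 0.33 per unit of *Fos* (adjusted p = 4.80e-05 by limma), with -0.45 to -0.21 in mice 4 to 7 and 0.01 to 0.49 in the others. *Nfkbia* encodes an inhibitor of NF-κB, and fell by 0.23 per unit (adjusted p = 0.000109 by limma), with -0.46 to -0.35 against -0.17 to 0.22. The other 6 genes that fell, chosen here after their values were seen, were *Tob1*, *Klf4*, *Per1*, *Nr4a2*, *Btg1* and *Mafk*. *Tob1*, a relative of *Btg2*, had -1.11 to -0.70 in mice 4 to 7 and -0.24 to 0.09 in the others. *Per1*, a gene of the circadian clock, had -0.27 to -0.13 against 0.13 to 0.97, and was highest in mouse 9. Under median centring, which moved the share of all probes that fell from 24.4% to 8.43%, 16 genes of the list rose and 2 fell. The share of all probes that rose was 19.6% there. With the slide as a block 11 rose and 4 fell, where 12.4% and 15.2% of all probes did.

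**Figure D5:**
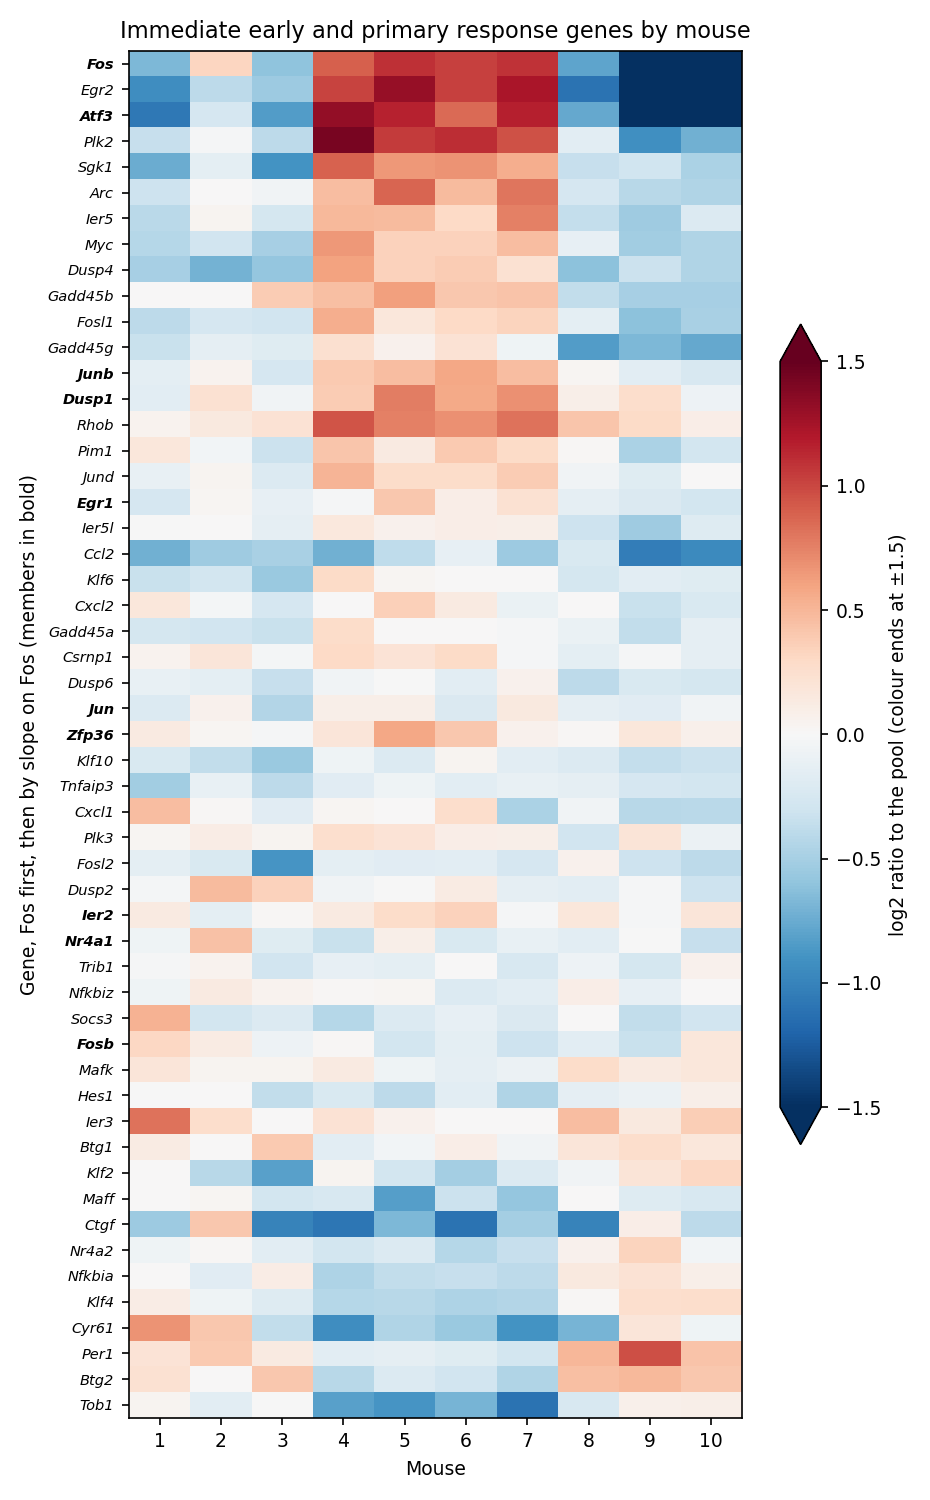
Log2 ratio to the pool (colour) of the 10 genes (bold) and 43 other early and primary response genes (rows) in mice 1 to 10 (columns), with *Fos* on top and the others by their slope on *Fos*. *Egr2*, *Atf3* and *Plk2* follow *Fos*, and *Per1*, *Btg2* and *Tob1* at the foot are lower in mice 4 to 7.

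Genes of the pathways that act on early genes were on another list of 22, all expressed: 11 rose with *Fos*, 5 fell and 6 were not called, against 22.2% and 24.4% of all probes. The 3 most like *Fos* were *Mkl2*, a coactivator of serum response factor (slope 0.30, adjusted p = 2.22e-05 by limma), the ribosomal S6 kinase gene *Rps6ka1* (0.36, 5.25e-05) and *Mkl1*, a relative of *Mkl2* (0.35, 5.76e-05). *Srf* itself had a slope of 0.07 and was not called (adjusted p = 0.127 by limma). The genes that fell were *Rps6ka3* (slope -0.38), *Elk1* (-0.22), *Mapk9* (-0.18), *Crem* (-0.15) and *Mapk8* (-0.15). Under median centring 10 rose and 0 fell at the adjusted threshold, where 19.6% and 8.43% of all probes did. With the slide as a block 5 rose and 2 fell, where 12.4% and 15.2% of all probes did. Within the 6 mice 0 rose and 1 fell, *Elk4*, which encodes a partner of serum response factor (slope -0.41, adjusted p = 0.0326 by limma). *Elk4* had 3 probes on the array and was read by the brightest expressed probe only. At an unadjusted p under 0.05, 4 of the list rose and 2 fell, where 16.9% of all probes passed in either direction.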

How the data were processed

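RNA of 10 mice was hybridized (Cy5) with a reference pool (Cy3) to 2-colour Agilent arrays. Per the labels, the scanner files were made with Agilent Feature Extraction 10.7.3.1. The deposited intensity values are spot and local background brightness, without normalization. The deposited log10 ratios were computed by that software, and its flags were used as deposited. The authors also deposited normalized values for 30733 spots, on a log2 scale as judged from the values, with a normalization not given in the sources used here. Over the spots of an array they had an r of 0.993 to 0.999 with log2 Cy5, so they were read as signals of the mice and not as ratios to the pool. They were used as an alternative.

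Mean signals were corrected with normexp (offset 50) and normalized by loess within arrays, and for channel values by Aquantile, with limma 3.58.1 in R 4.3.3. Control and outlier spots were left out and spots of a probe averaged. A list gene with several expressed probes was represented by the probe with the highest mean Cy5 signal, and its other probes were not read. Probes counted as expressed if the Cy5 flag for a signal well above background was set on 5 arrays or more (27811 probes, 27718 of them complete). Tests were the Pitman-Morgan test, limma regression and limma's F test, with Benjamini-Hochberg adjustment over all probes and a threshold of 0.05. The Pitman-Morgan test and the regression were tested on simulated data, and the F test was not. The simulated noise was drawn independently for each mouse, without the difference between the sets of mice. Permutation tests over 6 mice were exact. The planned r over 10 mice was not given because the mice formed clusters. Promoters were searched with Python 3.11.15. Members, lists, motifs and the rule for named genes (all members, the 3 genes of each list most like *Fos* and the 2 least like it, and the 10 and 5 probes at the ends of the table) were chosen with earlier results of these data known. An item that the rule names is not reported here. The number of arrays limits the precision.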

Additional observations from a re-analysis of the deposited data

Results flagged for a closer look

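In each of 103 early, upstream, heat shock and dual specificity phosphatase genes, the gap between the most extreme mouse and its neighbour was set against the range of the 10 mice (Dixon's criterion). It was exceeded in 4 genes (3.88%) and in 0 of the 10 immediate early genes described above. The criterion's rate of about 1 in 20 holds for values from the same normal distribution. The mice formed clusters, so 3.88% cannot be judged against that rate. *Dusp14* was highest in mouse 2, at 1.20 against -0.01 in the next mouse, a gap of 0.677 of the range. *Socs3*, an inhibitor of cytokine signalling, was highest in mouse 1, at 0.52 against 0 in the next (gap 0.548). *Dusp11* was lowest in mouse 1, at -0.23 against 0.07 (gap 0.543), and the variance of its Cy5 was not called above that of Cy3 (adjusted p = 0.916 by the Pitman-Morgan test). *Fosl2*, which encodes another partner of JUN, was lowest in mouse 3, at -0.88 against -0.39 (gap 0.519). Mouse 3 had the lowest median Cy5 signal of the 10 arrays (54.8). The cause was not tested for any of them.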

How the results depend on the processing

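No paired analysis was possible because all mice belong to 1 group, and the 2 mice of a slide were compared by the slide block. The probes with a higher variance in Cy5 numbered 14970, and 4684 without normalization between arrays and 3555 in the 6 mice on 1 side of the first component. The 8 early genes among them became 4 and 3. Probes called with *Fos* numbered 12907, against 7760 under median centring, 7667 with the slide as a block, 495 with the first component as a covariate and 872 in the 6 mice. The 4 early genes called with *Fos* became 0 with the component and 1 in the 6 mice. With the slide as a block the count stayed at 4, but *Jun* was gained (slope 0.244 in place of 0.09, adjusted p = 0.0372 by limma) and *Egr1* lost (slope 0.167 in place of 0.18, adjusted p = 0.112). The 21 ordered pairs became 36 under median centring, 13 where a probe had to pass on all 10 arrays (*Junb* then dropped out), 10 with the slide block, 0 with the component and 2 in the 6 mice.

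Leaving out each mouse in turn gave 13501 to 14403 and 7 to 9 for the variance, 11127 to 14142 and 4 throughout for *Fos*, and 20 to 23 pairs. *Ier2* was lost from the variance calls without mouse 2, 3, 5 or 6, and *Fosb* was gained without mouse 10. The slide was called for 0 probes under each alternative run.

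Some slopes on *Fos* that were not called turned sign: *Fosb* to 0.16 with the component and 0.118 in the 6 mice, *Jun* to -0.015 with the component, *Ier2* to -0.068 with the slide block, -0.088 with the component and -0.105 in the 6 mice, *Zfp36* to -0.006 with the component and -0.055 in the 6 mice, and *Nr4a1* to -0.008 without replicate 10 (up to 0.062 without replicate 4). The log2 ratio of the SDs of Cy5 and Cy3 turned to -0.101 for *Fosb* with the slide block and to -0.279 for *Zfp36* in the 6 mice. The SD of *Jun* was 0.476 under median centring. The causes were not tested. Each of the 10 genes has 1 probe, so the mean over probes of a gene was not run as a separate alternative.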

Other observations

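Among 11 expressed heat shock genes of a list of 12, 3 rose with *Fos* and 2 fell (limma, adjusted p under 0.05), beside 22.2% and 24.4% of all probes. *Hsph1* (0.12 to 0.55 in mice 4 to 7 and -0.62 to 0.01 in the others), the chaperone partner *Bag3* (0.17 to 0.48 and -0.48 to -0.22) and *Hspa1a*, the inducible HSP70 (-0.07 to 0.34 and -0.41 to -0.03), rose. The small heat shock gene *Hspb1* went the other way, with -0.98 to -0.79 in mice 4 to 7 and 0.01 to 0.38 in the others (slope -0.51, adjusted p = 6.16e-05 by limma), as did the mitochondrial chaperonin gene *Hspd1* (-0.30 to -0.15 and 0.03 to 0.45). Within the 6 mice limma called 0 of the 11, and 0 had an unadjusted p under 0.05, where 16.9% of all probes did.

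Of 21 expressed dual specificity phosphatase genes, *Dusp1* included, 6 rose with *Fos* and 5 fell, beside 22.2% and 24.4% of all probes. Next to *Dusp1*, *Dusp7* had 0.36 to 0.57 in mice 4 to 7 and -0.17 to 0.08 in the others, and *Dusp13* had 0.50 to 0.82 and -0.55 to -0.35. *Dusp10* (-1.20 to -0.33 and -0.57 to 0.58) and *Dusp16* (-0.32 to -0.08 and 0.09 to 0.41) fell with *Fos* (slopes -0.49 and -0.21, adjusted p = 0.000432 and 0.000389 by limma). Under median centring 5 rose and 2 fell, where 19.6% of all probes rose and 8.43% fell. Within the 6 mice limma called 0 of the 21, and 5 had an unadjusted p under 0.05, as did 16.9% of all probes.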
